A study of Mus musculus with 10 samples.

Results

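The mammalian mitochondrial ribosome translates the 13 messenger RNAs of the mitochondrial genome, all of which encode subunits of the oxidative phosphorylation complexes. Its RNAs are transcribed from the mitochondrial genome, whereas every one of its proteins is encoded in the nucleus, made in the cytosol and imported, so that the particle joins products of both genomes. The genes reported here are those of the mitochondrial ribosomal proteins, chosen from the deposited table as symbols that begin with Mrpl (large subunit) or Mrps (small subunit) followed by a digit and that reach 1 CPM (a read count scaled to a library total of 1000000) in 5 or more libraries. This rule found 79 of the 45706 genes in the table, 50 Mrpl and 29 Mrps. No gene with such a symbol lay outside the threshold: 77 members reached 1 CPM in all 10 libraries and the lowest members, Mrpl23-ps1 and Mrps22, in 9. All 79 also passed the filter of the test, since it is the same.

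The label fits 77 of the members. Mrpl23-ps1 is a processed pseudogene by the GENCODE annotation and shares 95.2% of its 31-base words with other genes, 94.6% with its parent Mrpl23, so its reads cannot be told apart from those of Mrpl23 with certainty. Mrps36, despite its symbol, encodes a subunit that anchors the E3 component in the oxoglutarate dehydrogenase complex and is not part of the human mitochondrial ribosome. In structures of the ribosome the products of Mrps30 and Mrps18a sit in the large subunit, so counts are given by symbol and by structure.

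RNA came from left ventricles of mice, 5 libraries from TAC hearts given osimertinib and 5 from TAC hearts given placebo, which the treatment label calls vehicle. TAC stands in heart research for transverse aortic constriction, an operation that narrows the aorta and loads the left ventricle with pressure, and osimertinib is a kinase inhibitor given to patients with lung cancer driven by the epidermal growth factor receptor. Both groups had TAC, and no library of an unoperated heart enters the comparison, which asks which transcripts differ in loaded ventricles under a drug with cardiac toxicity. No source used here gives strain, age, sex, dose or duration. The labels do not tie the libraries of a group to separate animals, so each p-value reflects the spread between libraries, which may be technical.

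Depth was between 15863265 and 21309296 reads per library, and the member with the fewest reads in any library had 16.3. Placebo library 5 stood apart: 63.4% of its CPM lay on mitochondrially encoded genes, against 31.8% to 45.2% in osimertinib libraries and 38.1% to 48% in the other placebo libraries. The deposited CPM carry no factor between libraries, so each library was divided by a median-ratio factor, 0.455 for placebo library 5 and 0.926 to 1.34 for the other 9, and values below are these rescaled CPM unless named as deposited. Over the 12350 genes tested, the log2 fold changes had a median of 0.01 after this step and of 0.27 before it. Markers of cardiomyocytes were abundant, with Myh6, the alpha myosin heavy chain, at 11830 ± 2012 CPM in osimertinib and 9723 ± 2580 CPM in placebo (SD, n = 5 each). Transcripts of atrial muscle were present in 6 of the libraries labelled left ventricle. Myl7, the atrial myosin light chain, measured 267, 309.5, 0.288, 1149 and 0.324 CPM in osimertinib libraries 1 to 5, against 256, 55.5, 0.862, 0.00 and 267 CPM in placebo libraries 1 to 5, so that it was under 1 CPM in osimertinib libraries 3 and 5 and in placebo libraries 3 and 4. In bulk tissue, fewer cells of a type and less RNA per cell cannot be told apart.

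Start regions are shown because the members are spread over 17 chromosomes and moved together. RefSeq start windows of GRCm38.p6, from 250 bases before to 50 bases after the start, were at hand for 69 of the 79 members. Members that passed the test below are shown first, with a motif of NRF1 (the 10 letters in capitals in the first 3 lines, any base at the fifth), of ETS factors such as GABPA (CCGGAAG) or of YY1 (AAGATGG) in capitals, on either strand, the other bases in lower case. The last line is Mrpl52, one of the members with the smallest difference, and it also carries such motifs. All sequences run 5′ to 3′ on the gene's own strand.
Mrpl9 (chr3:94443298-94443327, plus strand): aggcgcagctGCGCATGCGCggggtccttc
Mrpl39 (chr16:84735350-84735379, minus strand): aaggagaggcGCGCATGCGCccccgcgtgg
Mrpl44 (chr1:79775973-79776002, plus strand): agaagcacttGCGCACGCGCagtacactag
Mrps12 (chr7:28741802-28741831, minus strand): aaggaggaaccCCGGAAGgggctggaggta
Mrpl42 (chr10:95501904-95501933, minus strand): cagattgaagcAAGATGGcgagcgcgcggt
Mrps22 (chr9:98601680-98601779, minus strand): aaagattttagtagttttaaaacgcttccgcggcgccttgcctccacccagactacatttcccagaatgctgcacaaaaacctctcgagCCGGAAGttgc
Mrpl52 (chr14:54426809-54426908, plus strand): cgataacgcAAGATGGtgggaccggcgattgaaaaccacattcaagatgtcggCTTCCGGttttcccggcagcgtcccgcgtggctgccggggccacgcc

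The capitals in Mrpl9, Mrpl39 and Mrpl44 mark the NRF1 motif, those in Mrps12 and Mrps22 the ETS motif, that in Mrpl42 the YY1 motif and those in Mrpl52 a YY1 and an ETS motif. NRF1, GABPA and YY1 are transcription factors known to act on nuclear genes of mitochondrial proteins. The NRF1 motif was in the windows of 13 members (18.8%), against 11.4% of the 9487 tested genes with a window. The ETS motif was in 26 members (37.7%), against 20% of tested genes, and the YY1 motif in 13 (18.8%), against 8.41%. The letters TCAAGGTCA of the estrogen-related receptors were in none of the 69 windows and in 0.306% of tested genes. At least 1 of the NRF1, ETS and YY1 motifs was found in 10 of the 17 windows of members that passed (58.8%) and in 33 of the 52 of members that did not (63.5%), against 34.4% of tested genes. The share with any of the 3 was thus close between members that passed and those that did not, although the ETS motif alone was in 23.5% of the 17 and in 42.3% of the 52. Of the other motifs searched, the SP1 motif GGGCGG was in 49.3% of members and 69.6% of tested genes, the CCAAT box in 39.1% and 42.4%, the E box CACGTG in 7.25% and 11.7%, and the TATA box TATAAA in 7.25% and 8.97%. None of these differences was tested. A match describes letters in a window and shows neither binding nor its absence.

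The transcripts of the mitochondrial ribosomal proteins stood higher in osimertinib than in placebo hearts as a group. The log2 fold change was above 0 in 78 of the 79 members, against 51.1% of all genes tested, and the median was 0.54. Members shifted together within each library, so they are not separate observations of the treatment. The member medians of the libraries overlapped, at -0.08 to 0.70 in osimertinib and -0.80 to 0.19 in placebo (log2, each gene centred on its mean). Of the 79, 19 rose and none fell (limma, two-sided, Benjamini-Hochberg adjusted p under 0.05 over 12350 genes), which is 24.1% of members, where 10.4% of all genes tested rose and 10.5% fell. With voom on estimated reads, 18 rose and none fell, where 10.6% of all genes rose and 10.7% fell. At an unadjusted limma p under 0.05, 53 members were higher, against 20.2% of all genes, and 0 were lower. The log2 fold changes of the 19 lay between 0.52 and 0.93, or 1.44-fold to 1.91-fold, and those of the other 60 between -0.05 and 0.90. All 5 osimertinib libraries lay above the placebo mean in 60 members. The share of all genes with this trait was not computed, so the count is a description only. The 2 groups did not overlap in 2 members, Mrps30 and Mrpl9, against 5.72% of all genes tested that were higher without overlap.

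**Figure D1:**
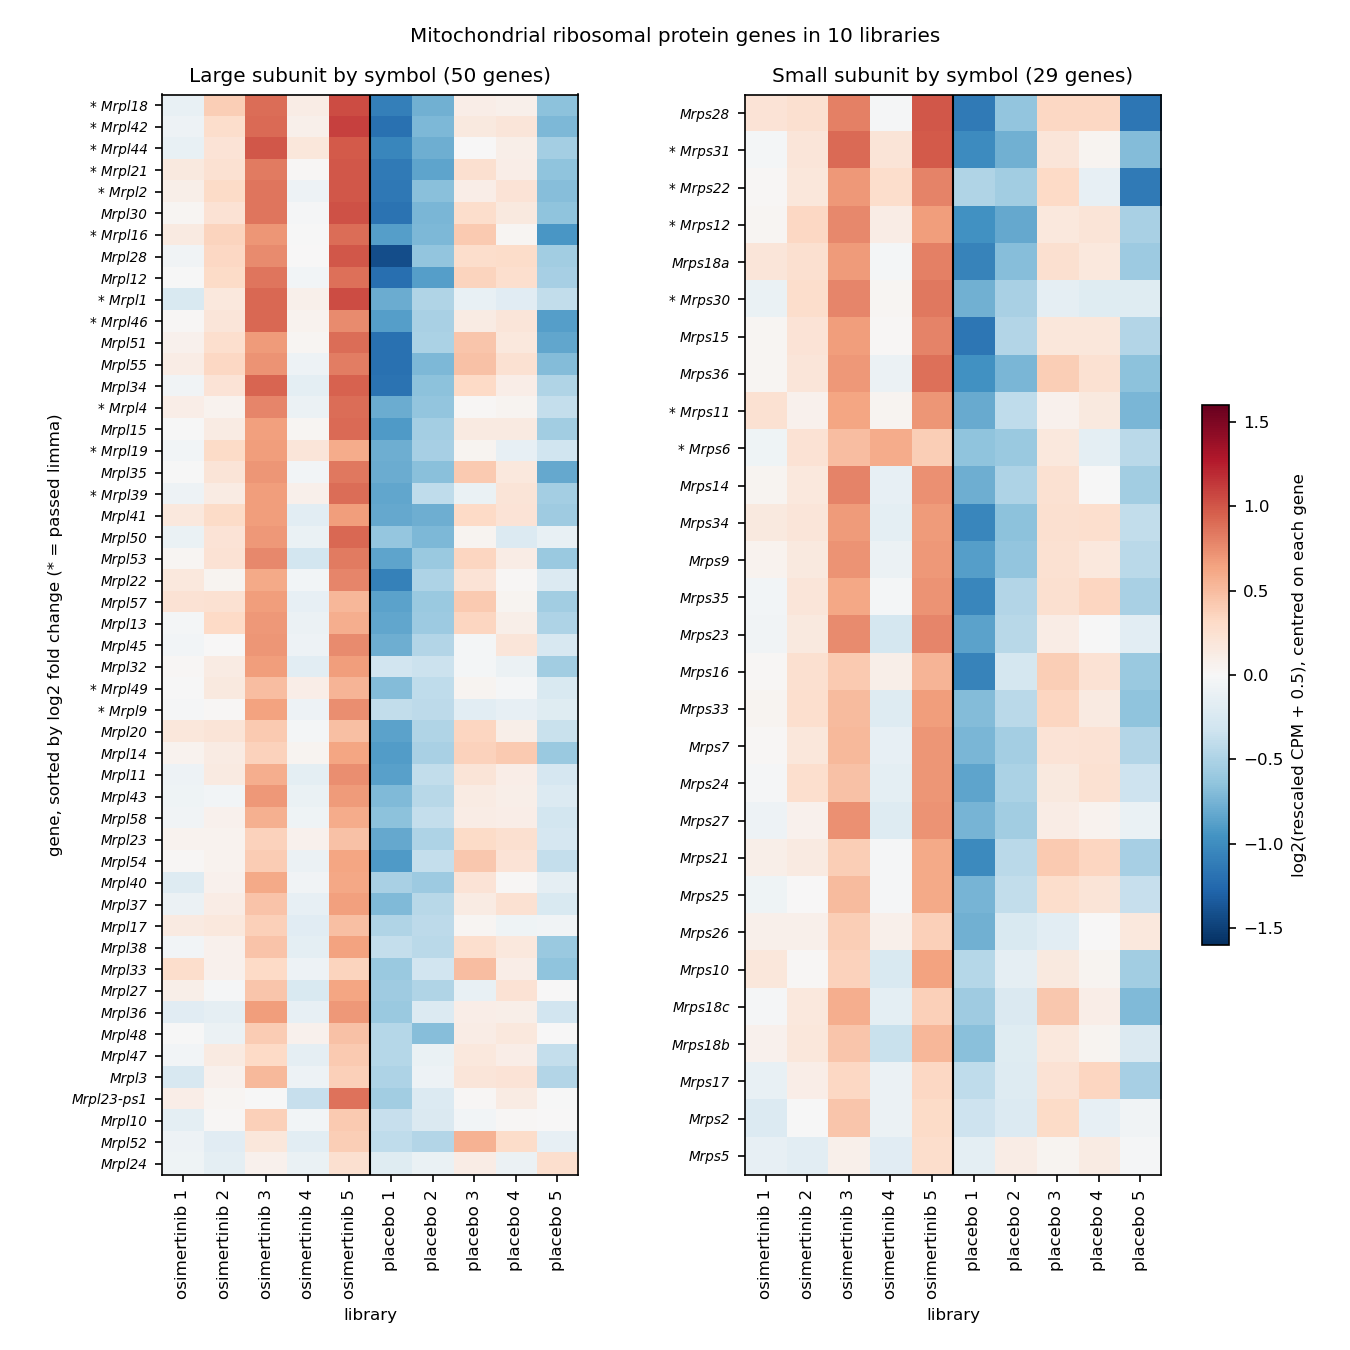
Each row is a member and each column a library, with osimertinib on the left and placebo on the right of each panel; colour gives log2(rescaled CPM + 0.5) minus the member's mean over the 10 libraries, and an asterisk marks the 19 members that passed limma. Osimertinib libraries 3 and 5 are high and placebo libraries 1, 2 and 5 low over most rows, while Mrpl24, Mrpl52 and Mrps5 at the bottom stay pale or break the pattern.

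The number of calls rested on single libraries. It was 0 without osimertinib library 3 (where 1.76% of all genes rose), 0 without osimertinib library 5 (2.39%), 0 without placebo library 1 (3.13%) and 0 without placebo library 2 (2.73%), with 28 to 30 members higher at an unadjusted p under 0.05 in these limma fits. It was 6 without osimertinib library 2 (6.89%) and 4 without placebo library 5 (8.35%). Without osimertinib library 1 it was 23 (11.6%), without osimertinib library 4 it was 28 (11%), without placebo library 4 it was 29 (11.1%) and without placebo library 3 it was 44 (12.6%). The size of the difference moved less: over the same 10 fits the median log2 fold change of the members lay between 0.43 and 0.70, and 76 to 78 members were above 0. In the deposited CPM 21 members rose and none fell (6.62% of all genes rose), 13 of them among the 19, with a median of 0.83 against 0.27 for all genes. With no filter on low values no member passed (2.45% of all genes rose), at a smallest member adjusted p of 0.0502 and with 50 at an unadjusted p under 0.05. With libraries scaled to the total without mitochondrially encoded genes 4 members passed (4.09%), without a variance trend 11 passed (9.04%), and without placebo library 5 in the deposited CPM 4 passed (5.01%).

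The member genes varied together from library to library, and the groups overlapped. After centring each gene on its mean over the 10 libraries, the member medians were 0.00, 0.17, 0.66, -0.08 and 0.70 on the log2 scale in osimertinib libraries 1 to 5, against -0.80, -0.50, 0.19, 0.13 and -0.47 in placebo libraries 1 to 5. Osimertinib libraries 3 and 5 were thus the highest and placebo libraries 1, 2 and 5 the lowest. Placebo libraries 3 and 4 lay inside the osimertinib range, above osimertinib libraries 1 and 4. Members above their own median over all libraries numbered 20, 70, 78, 16 and 79 in osimertinib libraries 1 to 5, against 0, 1, 70, 56 and 5 in placebo libraries 1 to 5. The summed level of the 79 members was 1941, 2163, 2977, 1851 and 3199 rescaled CPM in osimertinib libraries 1 to 5, against 1076, 1351, 2258, 2143 and 1427 in placebo libraries 1 to 5.

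Markers of cardiomyocytes moved with the members. The sum of 8 cardiomyocyte markers was 24410, 27980, 33840, 25690 and 38880 rescaled CPM in osimertinib libraries 1 to 5, against 14210, 18420, 27240, 30040 and 18770 in placebo libraries 1 to 5. These sums have the same 2 highest osimertinib libraries and the same 3 lowest placebo libraries as the members. Per 1000 CPM of these markers, the members made up 72.1 to 87.97 CPM in osimertinib and 71.3 to 82.9 CPM in placebo, ranges that overlapped for most of their width. Of the 8 markers, 1 rose (12.5%, near the 10.4% of all genes tested that rose), and the median of the 8 was 0.61. The marker that rose was Actn2, the sarcomeric alpha-actinin, at 1.02 ± 0.29 (SE, log2 fold change, limma adjusted p = 0.0308). It lost this call without osimertinib library 3 or 5 or placebo library 1, 2 or 5 (adjusted p up to 0.0825). The part of cardiomyocyte content in the result was not tested.

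Markers of other cell types were also summed. None of 5 atrial markers tested passed, with sums of 2228, 1779, 1502, 4549 and 690 rescaled CPM in osimertinib libraries 1 to 5, against 1379, 792, 1085, 494 and 1041 in placebo libraries 1 to 5. Nppa, a natriuretic peptide that loaded ventricles also make, made up nearly all of the sum in osimertinib libraries 3 and 5 and placebo libraries 3 and 4, with 1528, 986, 1496, 1820 and 685 CPM in osimertinib libraries 1 to 5, against 796, 663, 1081, 490 and 442 CPM in placebo libraries 1 to 5. The libraries with Myl7 under 1 CPM, osimertinib 3 and 5 and placebo 3 and 4, were the 2 highest of each group for the members. None of 8 fibroblast markers passed, at sums of 646 to 1330 in osimertinib and 465 to 964 in placebo. Of 6 endothelial markers 1 fell, with sums of 896 to 1236 in osimertinib and 974 to 1515 in placebo. Of 7 macrophage markers 2 rose, with sums of 213 to 283 in osimertinib and 150 to 221 in placebo. Among all genes tested 10.4% rose and 10.5% fell. In the deposited CPM no endothelial or macrophage marker passed, while 2 atrial and 3 cardiomyocyte markers rose, where 6.62% of all genes rose. None of 6 smooth muscle and pericyte markers passed, at 498 to 801 in osimertinib and 417 to 633 in placebo. Of the erythroid markers 3 were tested and none passed, at 42.6 to 379 in osimertinib and 109 to 296 in placebo, and the 3 lymphocyte markers were too low to test, at sums of 0.952 to 2.00 in osimertinib and 0.459 to 1.64 in placebo. Of the adipocyte markers 2 were tested and none passed, with sums of 27.3, 9.22, 0.527, 33.7 and 1.89 rescaled CPM in osimertinib libraries 1 to 5, against 16.7, 2.11, 0.608, 0.197 and 34.5 in placebo libraries 1 to 5. Adipocyte markers were thus also lowest in the same 2 osimertinib and the same 2 placebo libraries, those highest for the members.

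The difference between the groups was present among the libraries with and among those without Myl7 at 1 CPM, a division made after the values were seen. Among the 3 osimertinib and 3 placebo libraries with at least 1 CPM, the median log2 difference of the 79 members was 0.63 and 77 were above 0, where the median of all genes tested was 0.00. Among the 2 osimertinib and 2 placebo libraries under 1 CPM, the median was 0.48 and 78 were above 0, where that of all genes was 0.04. Members were not alone in this. The median of the 8 cardiomyocyte markers was 0.75 among the libraries with at least 1 CPM and 0.40 among those under 1 CPM. For 78 nuclear genes of oxidative phosphorylation subunits it was 0.99 and 0.38. These values carry no test, and the part of tissue or cell content in them was not tested. With a term for this division in the limma fit, 70 members rose, the 19 among them, and none fell, where 19.4% of all genes rose, and the median stayed at 0.54. The division follows the order of the libraries for the members within each group, so these calls are not independent of the values that led to it.

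**Figure D2:**
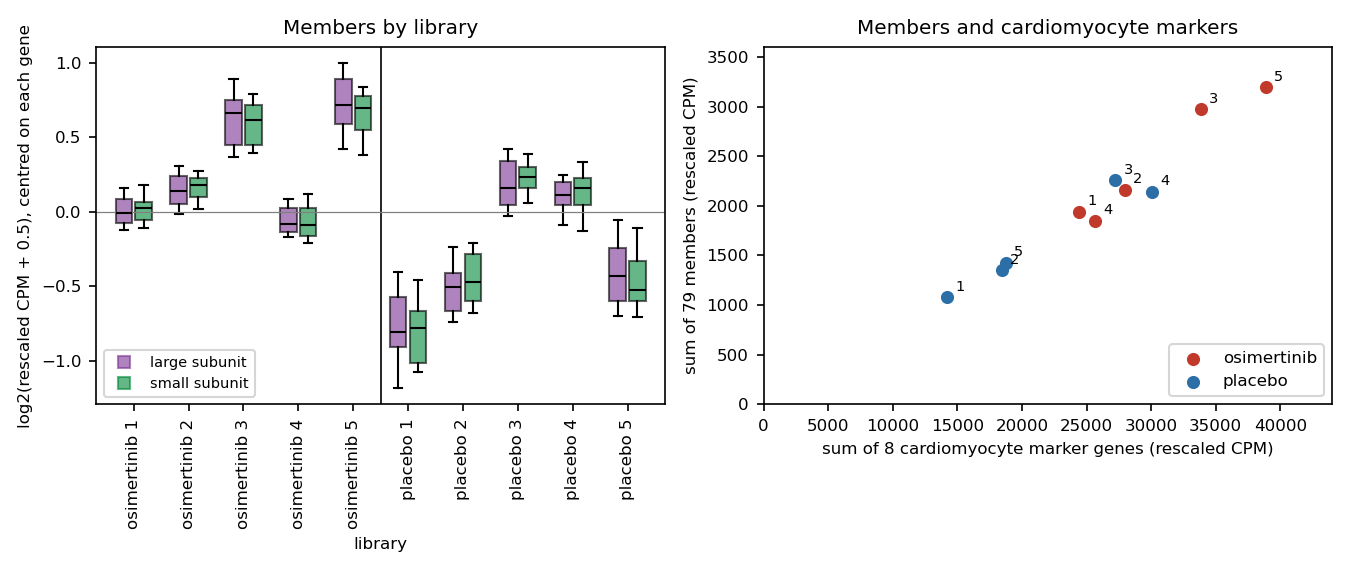
Left, boxes of the log2 levels of large-subunit and small-subunit members, each gene centred on its mean, in the 5 osimertinib and the 5 placebo libraries (line, median; box, quartiles; whiskers, 10th and 90th percentiles); right, the summed rescaled CPM of the 79 members against that of 8 cardiomyocyte markers, a point for each numbered library. Large and small subunits shift together in every library, and placebo libraries 3 and 4 lie inside the osimertinib range in both panels.

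Large-subunit and small-subunit genes moved alike. Of 50 Mrpl genes 13 rose (26%), with a median log2 fold change of 0.56. Of 29 Mrps genes 6 rose (20.7%), with a median of 0.54. None fell in either, where 10.4% of all genes tested rose and 10.5% fell. Counted by structure, without the pseudogene and Mrps36, 14 of 51 large-subunit genes (median 0.62) and 5 of 26 small-subunit genes (median 0.52) rose. The summed level of the large subunit over that of the small subunit was 1.80 to 1.95 in osimertinib and 1.74 to 1.84 in placebo, so that the ranges overlapped. The difference between the subunits was not tested. Members with a relative in the bacterial ribosome rose in 11 of 48 cases (22.9%, median 0.56). Members found only in the mitochondrial ribosome rose in 8 of 29 (27.6%, median 0.54).

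Among large-subunit proteins with a bacterial relative, the largest fold change of all members was that of Mrpl18 (chromosome 17, 12911349 to 12916345, minus strand, GRCm38), whose bacterial counterpart L18 binds 5S ribosomal RNA. It measured 30.5, 43.98, 62.3, 36.2 and 69.4 CPM in osimertinib libraries 1 to 5, against 15.3, 19.4, 35.8, 35.3 and 20.96 CPM in placebo libraries 1 to 5. Only the highest placebo libraries, 3 and 4, reached the lowest osimertinib library. Means of 48.5 ± 16.7 CPM in osimertinib and 25.3 ± 9.55 CPM in placebo (SD, n = 5 each) gave a log2 fold change of 0.93 ± 0.27 (SE; limma adjusted p = 0.0355). The lowest p of all members belonged to Mrpl19 (chromosome 6, 81957851 to 81965958, minus strand), a relative of bacterial L19, which lies where the subunits meet. Its levels were 7.87, 10.2, 13.2, 9.37 and 12.5 CPM in osimertinib libraries 1 to 5, against 4.53, 5.49, 8.41, 7.41 and 6.40 CPM in placebo libraries 1 to 5, and the log2 fold change was 0.68 ± 0.18 (SE; limma adjusted p = 0.0252). The lowest osimertinib library lay under placebo library 3 alone.

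Mrpl1 is the relative of the protein of the bacterial L1 stalk, the mobile arm near the exit site for transfer RNA. Its transcript stood at 7.87, 10.7, 18.2, 10.02 and 19.9 CPM in osimertinib libraries 1 to 5, against 5.24, 6.61, 8.62, 8.26 and 7.02 CPM in placebo libraries 1 to 5, a log2 fold change of 0.79 ± 0.24 (SE; limma adjusted p = 0.0377). Osimertinib libraries 3 and 5 were over the other 8, while osimertinib library 1 lay among the placebo libraries. Mrpl12, which forms the stalk that recruits translation factors and is related to bacterial L7/L12, was among the 5 most abundant members by mean CPM. It measured 59.5, 73.6, 108, 57.8 and 109.9 CPM in osimertinib libraries 1 to 5, against 25.5, 32.2, 76.2, 72.03 and 41.1 CPM in placebo libraries 1 to 5. With placebo libraries 3 and 4 above osimertinib library 1, it did not pass (0.80 ± 0.31, SE; adjusted p = 0.0784).

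**Figure D3:**
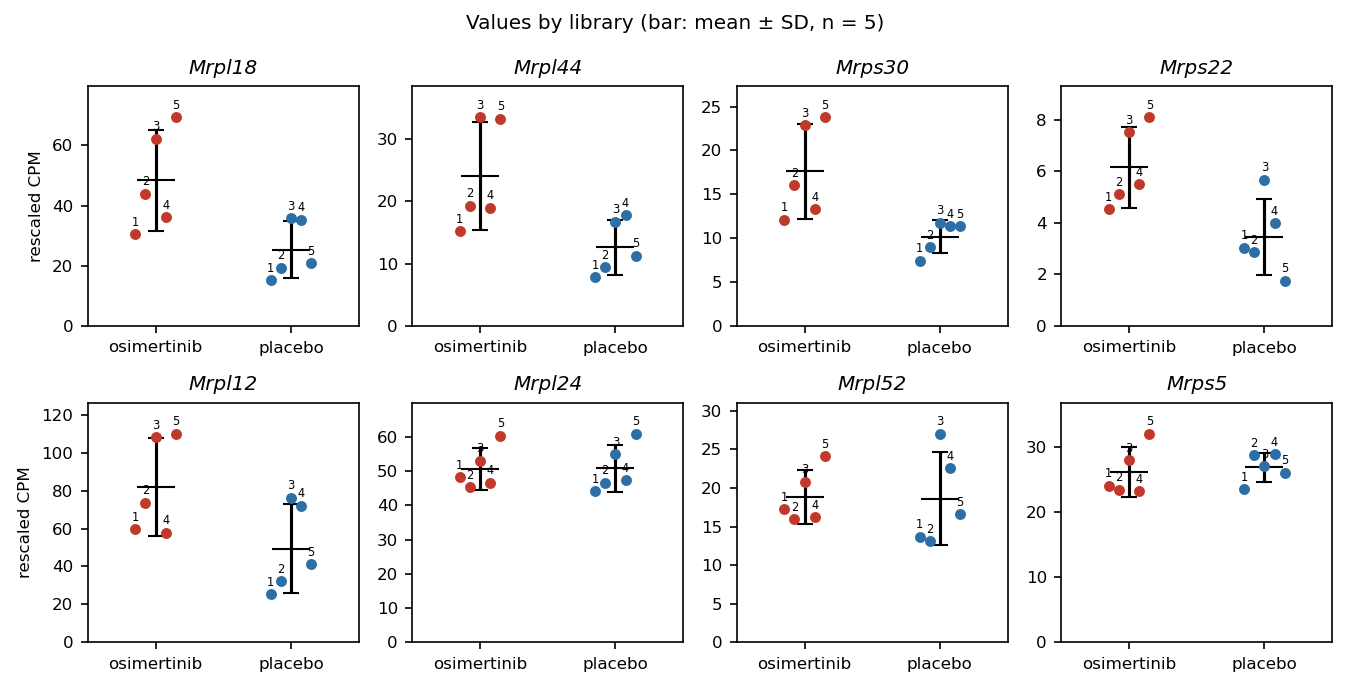
Rescaled CPM of 8 members in each numbered library, osimertinib left and placebo right, with the mean and SD of the 5 libraries as bars; each axis starts at 0. Mrpl18, Mrpl44, Mrps30 and Mrps22 passed limma; Mrpl12, Mrpl24, Mrpl52 and Mrps5 did not.

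The other 4 of the 5 most abundant members were Mrpl51, Mrpl42, Mrpl30 and Mrpl28. Mrpl42, a protein with no bacterial relative, stood at 58.2, 74.8, 116, 65.3 and 132 CPM in osimertinib libraries 1 to 5, against 26.7, 37.2, 68.4, 70.6 and 37.2 CPM in placebo libraries 1 to 5, and rose by 0.91 ± 0.30 on the log2 scale (SE; limma adjusted p = 0.0471). Of these 4 it alone passed, although the log2 fold changes of the others were 0.77 to 0.85. Mrpl51 measured 68.3, 78.7, 105, 66.3 and 121 CPM in osimertinib libraries 1 to 5, against 28.1, 45.7, 88.6, 73.3 and 36.3 CPM in placebo libraries 1 to 5 (0.77 ± 0.29, SE; adjusted p = 0.0750). Mrpl30, the relative of bacterial L30, had 52.98, 60.95, 94.1, 50.95 and 105 CPM in osimertinib libraries 1 to 5, against 22.6, 30.9, 62.8, 57.9 and 33.04 CPM in placebo libraries 1 to 5 (0.85 ± 0.29, SE; adjusted p = 0.0567). For Mrpl28, the relative of L28, the levels were 47.7, 62.8, 84.5, 49.8 and 99.4 CPM in osimertinib libraries 1 to 5, against 18.3, 31.9, 60.5, 61.1 and 33.7 CPM in placebo libraries 1 to 5 (0.81 ± 0.32, SE; adjusted p = 0.0810). In each of the 4 the spread within placebo was wide, with placebo libraries 3 and 4 inside the osimertinib range. Mrpl12, Mrpl28, Mrpl30 and Mrpl51 passed in the deposited CPM.

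Mrpl44 and Mrpl49 belong to the large-subunit proteins that only the mitochondrial ribosome has. Mrpl44 (chromosome 1, 79776018 to 79781445, plus strand), which has a fold like that of ribonuclease III and in which human variants cause infantile cardiomyopathy, measured 15.2, 19.3, 33.5, 18.9 and 33.2 CPM in osimertinib libraries 1 to 5, against 7.81, 9.43, 16.7, 17.8 and 11.3 CPM in placebo libraries 1 to 5. Its means of 24.02 ± 8.66 CPM in osimertinib and 12.6 ± 4.43 CPM in placebo (SD, n = 5 each) differed by 0.90 ± 0.27 on the log2 scale (SE; limma adjusted p = 0.0358). As for Mrpl18, osimertinib libraries 3 and 5 carried the highest values and placebo libraries 3 and 4 overlapped the lowest osimertinib library. Mrpl49 stood at 14.1, 15.8, 20.1, 15.3 and 20.8 CPM in osimertinib libraries 1 to 5, against 8.55, 10.5, 14.6, 13.96 and 11.9 CPM in placebo libraries 1 to 5, a smaller difference of 0.52 ± 0.16 (SE; limma adjusted p = 0.0401) with less spread. Mrpl3, the relative of bacterial L3 near the site of peptide bond formation, in which human variants have also been linked to cardiomyopathy, measured 27.9, 35.4, 48.6, 31.7 and 44.1 CPM in osimertinib libraries 1 to 5, against 23.7, 31.7, 38.5, 39.1 and 24.3 CPM in placebo libraries 1 to 5. It did not pass (0.25 ± 0.19, SE; adjusted p = 0.339), and neither did Mrpl36, the relative of the small bacterial protein L36, at 12.7 to 23.8 CPM in osimertinib and 9.44 to 15.7 CPM in placebo (0.36 ± 0.21, SE; adjusted p = 0.225).

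The products of Mrps30 and Mrps18a are found in the large subunit. Mrps30 (chromosome 13, 118378381 to 118387252, minus strand) measured 12.1, 16.01, 22.9, 13.3 and 23.8 CPM in osimertinib libraries 1 to 5, against 7.43, 8.96, 11.8, 11.3 and 11.4 CPM in placebo libraries 1 to 5. Its groups did not overlap, although osimertinib library 1 and placebo library 3 lay close together. The means were 17.6 ± 5.42 CPM in osimertinib and 10.2 ± 1.89 CPM in placebo (SD, n = 5 each), and the log2 fold change was 0.73 ± 0.20 (SE; limma adjusted p = 0.0292). Mrps18a, Mrps18b and Mrps18c are 3 relatives of bacterial S18, each occupying its own place in the mitochondrial ribosome. Their log2 fold changes were 0.76 ± 0.25, 0.35 ± 0.19 and 0.38 ± 0.22 (SE), at limma adjusted p of 0.0512, 0.191 and 0.211, so none passed. Mrps18a had 34.5, 36.1, 48.5, 29.5 and 53.2 CPM in osimertinib libraries 1 to 5, against 14.1, 18.7, 36.2, 34.02 and 20.03 CPM in placebo libraries 1 to 5, and it passed in the deposited CPM. For Mrps18b the range was 19.5 to 36.3 CPM in osimertinib and 15.6 to 28.3 CPM in placebo, and for Mrps18c it was 8.52 to 14.6 CPM in osimertinib and 5.68 to 13.1 CPM in placebo.

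In the small subunit, 4 more members were among the 10 with the lowest p. Mrps6 (chromosome 16, 92058270 to 92112227, plus strand), a relative of bacterial S6, stood at 12.8, 15.8, 19.1, 20.4 and 17.8 CPM in osimertinib libraries 1 to 5, against 8.41, 8.68, 15.1, 11.9 and 9.81 CPM in placebo libraries 1 to 5 (0.66 ± 0.17, SE; limma adjusted p = 0.0253). Unlike most members it was highest in osimertinib library 4, and 159 bases of its exons overlap exons of another tested gene on the same strand. Mrps11, whose bacterial relative S11 lies on the platform of the small subunit, measured 10.2, 8.97, 13.5, 8.82 and 14.3 CPM in osimertinib libraries 1 to 5, against 4.67, 6.33, 8.92, 9.57 and 4.96 CPM in placebo libraries 1 to 5 (0.68 ± 0.21, SE; limma adjusted p = 0.0410). Mrps31, specific to mitochondria, had 8.46, 10.03, 16.7, 10.1 and 17.7 CPM in osimertinib libraries 1 to 5, against 4.07, 4.88, 9.98, 8.98 and 5.16 CPM in placebo libraries 1 to 5 (0.90 ± 0.27, SE; limma adjusted p = 0.0361). Placebo library 3 overlapped the osimertinib range in all 3 of these genes. Mrps22 (chromosome 9, 98588730 to 98601660, minus strand), specific to mitochondria and linked to human mitochondrial disease with cardiomyopathy, was among the lowest members. It measured 4.53, 5.12, 7.52, 5.51 and 8.11 CPM in osimertinib libraries 1 to 5, against 3.04, 2.86, 5.68, 4.00 and 1.76 CPM in placebo libraries 1 to 5, and rose by 0.80 ± 0.25 (SE; limma adjusted p = 0.0413). Its placebo libraries 1, 2, 4 and 5 lay under every osimertinib library, and placebo library 3 lay inside the osimertinib range.

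Mrps14, the relative of bacterial S14 and also linked to human cardiomyopathy, did not pass at 0.64 ± 0.23 (SE; adjusted p = 0.0617), with 18.95, 20.8, 32.3, 16.7 and 30.9 CPM in osimertinib libraries 1 to 5, against 10.5, 12.9, 21.8, 18.4 and 12.4 CPM in placebo libraries 1 to 5. Mrps36, the member that is no ribosomal protein, stood at 0.69 ± 0.28 (SE; adjusted p = 0.0918), with 19.4 to 38.5 CPM in osimertinib and 10.3 to 27.3 CPM in placebo. Its library pattern was that of the ribosomal members, with osimertinib libraries 3 and 5 highest and placebo library 1 lowest. The remaining 8 members that passed, named here after their values were seen, were Mrpl2, Mrpl4, Mrpl9, Mrpl16, Mrpl21, Mrpl39, Mrpl46 and Mrps12. Their log2 fold changes were 0.52 to 0.90 and their limma adjusted p 0.0415 to 0.0490. All 19 members that passed had 5 of 5 osimertinib libraries above the placebo mean, a trait that passing a test on the same values favours.

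Every call among the members depended on single libraries. In limma fits without osimertinib library 3 or 5, or without placebo library 1 or 2, every one of the 19 lost its call. Mrpl19, Mrps6 and Mrps30 kept theirs in the other 6 fits, at a highest adjusted p over all 10 fits of 0.0745, 0.0724 and 0.0815. Mrpl44, Mrps11 and Mrps31 also lost theirs without placebo library 5 (highest 0.0960, 0.107 and 0.0966), and Mrpl1, Mrpl18, Mrpl42, Mrpl49 and Mrps22 without placebo library 5 or osimertinib library 2 (highest 0.0989, 0.0948, 0.120, 0.104 and 0.107). The log2 fold changes of these 11 stayed within 0.41 and 1.08 throughout. In the deposited CPM Mrps6, Mrps11 and Mrpl49 did not pass, and with totals without mitochondrially encoded genes Mrpl18, Mrpl19, Mrpl44 and Mrps30 were the 4 that did. Other members gained a call in some of these fits: Mrpl30 without osimertinib library 1 or 4 or placebo library 3 or 4 (lowest adjusted p 0.0296), Mrps18a without osimertinib library 4 or placebo library 3 or 4 (0.0258), Mrpl12, Mrpl28 and Mrpl51 without placebo library 3 or 4 (0.0361, 0.0432 and 0.0278), Mrps14 without osimertinib library 4 or placebo library 3 (0.0304) and Mrps36 without placebo library 3 (0.0367).

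A few members did not share the difference. Mrpl24 (chromosome 3, 87919506 to 87923672, plus strand), the relative of bacterial L24, which in bacteria binds early in large-subunit assembly, was among the more abundant members and measured 48.2, 45.3, 53.01, 46.6 and 60.3 CPM in osimertinib libraries 1 to 5, against 44.2, 46.6, 54.8, 47.4 and 60.8 CPM in placebo libraries 1 to 5. Its means of 50.7 ± 6.11 CPM in osimertinib and 50.8 ± 6.88 CPM in placebo (SD, n = 5 each) gave a log2 fold change of 0.00 ± 0.12 (SE; limma adjusted p = 1.00). Relative to the median member of the same library, Mrpl24 was 0.71 to 1.2 log2 units up in osimertinib and 0.98 to 1.86 in placebo. Mrps5 (chromosome 2, 127587222 to 127606829, plus strand), whose bacterial relative S5 helps to keep decoding accurate, was the only member with a log2 fold change under 0 (-0.05 ± 0.11, SE; adjusted p = 0.799). It stood at 24.02, 23.4, 27.99, 23.2 and 31.98 CPM in osimertinib libraries 1 to 5, against 23.5, 28.7, 27.1, 28.9 and 26.01 CPM in placebo libraries 1 to 5, with 2 of 5 osimertinib libraries above the placebo mean. In the deposited CPM its log2 fold change was 0.23, under the median of all genes.

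Mrpl52, specific to mitochondria, broke the pattern in another way, at 17.2, 15.96, 20.8, 16.2 and 24.1 CPM in osimertinib libraries 1 to 5, against 13.7, 13.1, 27.01, 22.5 and 16.6 CPM in placebo libraries 1 to 5 (0.06 ± 0.20, SE; adjusted p = 0.855). Here placebo library 3 was the highest of all 10 libraries. Mrps2, the relative of bacterial S2, measured 10.4, 12.2, 16.9, 11.5 and 15.2 CPM in osimertinib libraries 1 to 5, against 9.68, 10.5, 15.3, 11.2 and 11.8 CPM in placebo libraries 1 to 5 (0.17 ± 0.16, SE; adjusted p = 0.452). The groups of both genes overlapped over most of their range. The pseudogene Mrpl23-ps1 had 1.84, 1.73, 1.68, 1.19 and 3.48 CPM in osimertinib libraries 1 to 5, against 0.980, 1.37, 1.71, 1.89 and 1.68 CPM in placebo libraries 1 to 5 (0.25 ± 0.23, SE; adjusted p = 0.443). A test of these members against the other members was not run, so their difference from the rest is a description.

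Levels between genes were compared as rescaled CPM per kilobase of annotated exons, leaving out the pseudogene. The median level of the other 78 members was 10.2 CPM per kilobase in osimertinib and 6.85 in placebo. By subunit, the median was 10.7 in osimertinib and 6.92 in placebo for Mrpl genes, and 9.33 in osimertinib and 6.29 in placebo for Mrps genes. Levels spread widely although each protein is present in a single copy per ribosome in most cases: the highest was Mrps21, a relative of bacterial S21, at 73.0 CPM per kilobase in osimertinib and 55.0 in placebo. The lowest was Mrps10 in osimertinib, at 1.51 CPM per kilobase, and Mrps22 in placebo, at 0.868 (1.54 in osimertinib). The highest level was 48.2 times the lowest in osimertinib and 63.4 times in placebo. Annotated exons include long untranslated ends that a transcript in heart may not carry, which lowers the level per kilobase of such genes. Mrps10 and Mrps21 were named here after their values were seen.

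Many members share their start region with a gene on the other strand. A protein-coding gene read in the opposite direction started within 1000 bases of 28 of the 78 protein-coding members (35.9%), against 13.4% of 11855 tested protein-coding genes. These formed 27 pairs, of which 1 joined the members Mrps11 and Mrpl46, whose starts lie on chromosome 7 and which both rose (0.68 ± 0.21 and 0.78 ± 0.25, SE, log2 fold change; limma adjusted p = 0.0410 and 0.0480). Of the 26 neighbours that are not members, 3 rose, 5 fell and 18 did not pass, where 10.4% of all genes tested rose and 10.5% fell. These counts were not tested against those shares. The median log2 fold change of the neighbours was -0.15, where the median of their partners among the members was 0.52. The member had the higher log2 fold change in 22 of the 26 pairs, and 6 of these members passed.

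The neighbours that passed are named after their values were seen. Ndufb5, a complex I subunit beside Mrpl47, stood at 1.06 ± 0.34, adjusted p = 0.0456, Ptcd2, an RNA-binding protein of mitochondria beside Mrps27, at 0.72 ± 0.23, adjusted p = 0.0454, and the proteasome subunit gene Psma2 beside Mrpl32 at 0.57 ± 0.18, adjusted p = 0.0443 (log2 fold change, SE, limma). The 5 that fell were Gga3 beside Mrps7 (-0.65 ± 0.11, adjusted p = 0.0104), Mitd1 beside Mrpl30 (-0.59 ± 0.18, adjusted p = 0.0358), Eme2 beside Mrps34 (-0.54 ± 0.12, adjusted p = 0.0181), Ppp1r10 beside Mrps18b (-0.50 ± 0.11, adjusted p = 0.0157) and Pnpla7 beside Mrpl41 (-0.37 ± 0.11, adjusted p = 0.0413). Gga3 and Ppp1r10 kept their call in all 10 fits without 1 library and Eme2 in all but that without osimertinib library 3 (0.0551), while the other 5 passed in 3 to 5 of the 10 (adjusted p up to 0.116). In the deposited CPM none of the 5 that fell passed, at log2 fold changes of -0.10 to -0.37 where the median gene stood at 0.27, and Psma2 did not either. Members with such a neighbour rose in 8 of 28 cases (28.6%, median 0.53) and those without in 11 of 51 (21.6%, median 0.58). Of all genes tested 10.4% rose. Exons of 5 members, Mrps6 among them, overlap exons of a tested gene on the same strand, where strand cannot divide the reads. Exons of 18 members overlap exons of a gene on the opposite strand, Mrpl19, Mrpl44 and Mrps34 among them, and the division of reads within such pairs depends on whether the counting used strand. The libraries were strand-specific per the series' design text, which names RSEM for quantification, but no source used here gives the strand setting of the counting.

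**Figure D4:**
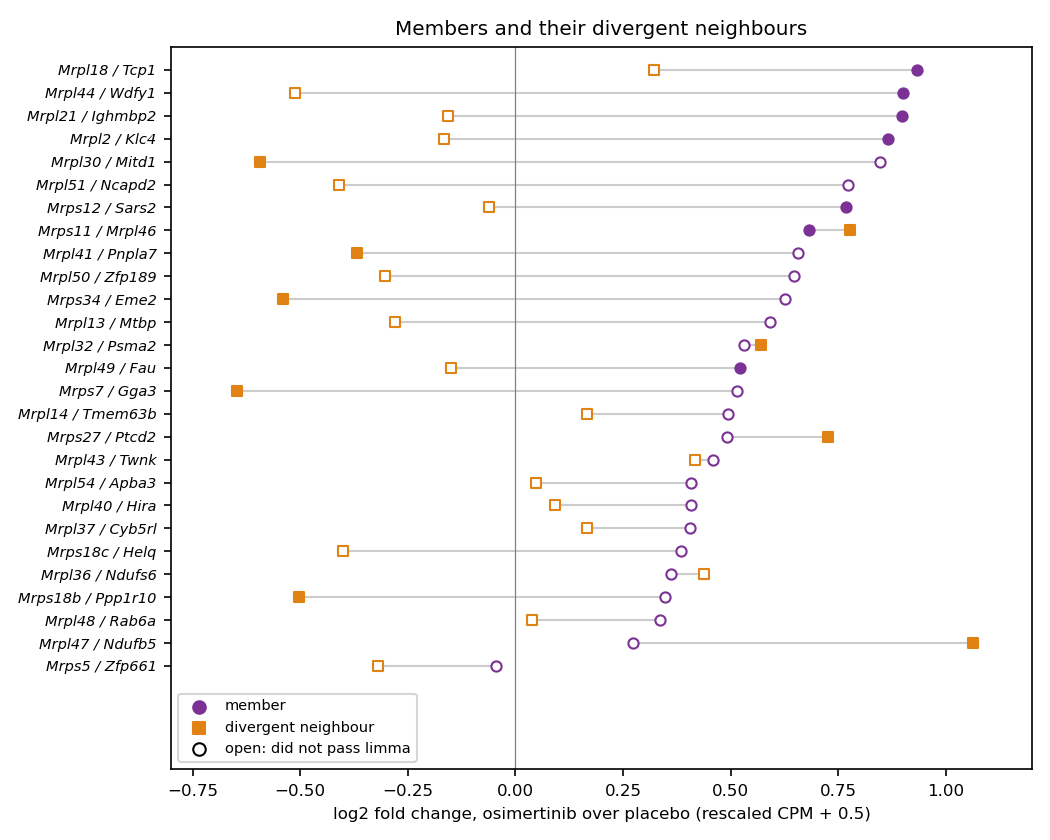
Log2 fold change (osimertinib over placebo, rescaled CPM + 0.5) of 27 members, as circles, and of the gene that starts within 1000 bases on the other strand, as squares, joined by a line; filled symbols passed limma at an adjusted p under 0.05. The member lies to the right of a neighbour that is not a member in 22 of 26 pairs.

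Proteins of the mitochondrial ribosome that carry other symbols gave a like picture. Of 5, 2 rose (10.4% of all genes tested rose), with a median of 0.59. Dap3, the GTP-binding protein of the small subunit, measured 33.4, 41.04, 48.4, 36.7 and 57.1 CPM in osimertinib libraries 1 to 5, against 23.5, 25.8, 35.9, 37.1 and 27.1 CPM in placebo libraries 1 to 5 (0.53 ± 0.17, SE; limma adjusted p = 0.0469). Aurkaip1, another small-subunit protein, rose by 0.65 ± 0.21 (SE; adjusted p = 0.0448). Both lost their call without osimertinib library 2, 3 or 5 or placebo library 1, 2 or 5 (adjusted p up to 0.119), and in the deposited CPM.

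Factors that build the ribosome were mixed, with 7 of 29 higher (24.1%) and 1 lower and a median of 0.33. Of all genes tested, 10.4% rose and 10.5% fell. Mpv17l2, a protein of the inner membrane that acts in ribosome assembly, measured 10.6, 8.87, 10.5, 9.67 and 12.1 CPM in osimertinib libraries 1 to 5, against 5.89, 6.61, 6.84, 7.21 and 7.85 CPM in placebo libraries 1 to 5. Its groups did not overlap, and its rise of 0.55 ± 0.11 (SE; limma adjusted p = 0.0144) kept its call in all 10 fits without 1 library but not in the deposited CPM (0.0785). Malsu1, which binds the large subunit during assembly, rose by 0.90 ± 0.23 (adjusted p = 0.0249), and Noa1, a GTPase needed for small-subunit assembly, by 0.65 ± 0.18 (adjusted p = 0.0306). Mterf3, a factor that represses mitochondrial transcription in mice and acts in ribosome assembly, was named after its values were seen. It fell by 0.58 on the log2 scale (SE 0.16, adjusted p = 0.0309), with 23.9, 19.0, 15.7, 18.4 and 18.6 CPM in osimertinib libraries 1 to 5, against 31.2, 34.1, 31.2, 30.1 and 18.9 CPM in placebo libraries 1 to 5. Its groups overlapped through placebo library 5, and it was at -0.30 in the deposited CPM (adjusted p = 0.648).

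Of 15 translation factors 6 rose (40%, against 10.4% of all genes tested) and none fell, with a median of 0.28. Gfm1, the elongation factor that moves the ribosome along the messenger RNA, had 31.1, 41.04, 66.4, 30.9 and 72.7 CPM in osimertinib libraries 1 to 5, against 18.4, 20.6, 30.4, 31.1 and 18.6 CPM in placebo libraries 1 to 5 (0.95 ± 0.26, SE; limma adjusted p = 0.0291). Oxa1l, which inserts the new proteins into the inner membrane, rose by 0.63 ± 0.18 (adjusted p = 0.0343) without overlap of the groups, and Mtrf1, a release factor, by 0.87 ± 0.25 (adjusted p = 0.0328) at only 2.87 ± 1.02 CPM in osimertinib and 1.33 ± 0.476 CPM in placebo (SD, n = 5 each). Of 20 mitochondrial tRNA synthetases 2 rose and 1 fell, with a median of 0.25. The 10% that rose is close to the 10.4% of all genes tested, of which 10.5% fell. Iars2, which charges tRNA with isoleucine, had 24.7, 33.3, 41.2, 29.3 and 48.7 CPM in osimertinib libraries 1 to 5, against 16.8, 18.5, 21.9, 22.7 and 20.4 CPM in placebo libraries 1 to 5 (0.77 ± 0.17, SE; limma adjusted p = 0.0170). Its groups did not overlap, and it lost its call only without osimertinib library 3 (0.0517). Fars2, for phenylalanine, rose by 1.05 ± 0.28 (adjusted p = 0.0286), whereas Hars2, for histidine, was lower in every osimertinib library, with 14.1, 12.8, 14.5, 13.8 and 11.8 CPM in osimertinib libraries 1 to 5, against 17.2, 19.8, 16.02, 15.8 and 21.2 CPM in placebo libraries 1 to 5 (-0.41 ± 0.11, SE; adjusted p = 0.0300). In the deposited CPM Hars2 did not pass (adjusted p = 0.853).

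Of 24 factors for mitochondrial DNA and RNA 7 rose (29.2%, against 10.4% of all genes tested) and 1 fell, with a median of 0.08. Tfam, which packages mitochondrial DNA and starts its transcription, measured 12.2, 15.8, 19.8, 13.7 and 19.1 CPM in osimertinib libraries 1 to 5, against 8.88, 9.38, 11.8, 11.7 and 11.1 CPM in placebo libraries 1 to 5 (0.57 ± 0.15, SE; limma adjusted p = 0.0248). Grsf1, an RNA-binding protein of mitochondrial RNA granules, rose by 0.68 ± 0.18 (adjusted p = 0.0283) and the transcription factor Tfb2m by 0.46 ± 0.13 (adjusted p = 0.0291). Osimertinib and placebo did not overlap for Tfam and Tfb2m. Polg, the catalytic subunit of the mitochondrial DNA polymerase, named after its values were seen, fell by 0.34 (SE 0.10, adjusted p = 0.0353), with 43.2, 47.4, 44.2, 49.4 and 41.7 CPM in osimertinib libraries 1 to 5, against 61.9, 50.1, 62.8, 55.2 and 56.6 CPM in placebo libraries 1 to 5; in the deposited CPM it was at -0.06 (adjusted p = 0.943). Calls of Tfam, Grsf1, Tfb2m, Oxa1l, Noa1, Aurkaip1 and Dap3 were absent in the deposited CPM. Apart from Iars2 and Mpv17l2, each gene named from these 5 lists lost its call in 4 to 6 of the 10 fits without 1 library, always without osimertinib library 3 or 5 or placebo library 1; all but Polg lost it without placebo library 2 as well. Over the 93 genes of these lists, 24 rose and 3 fell with all libraries, where 10.4% of all genes tested rose and 10.5% fell. From 1 rose without osimertinib library 3 (1.76% of all genes) to 31 without placebo library 3 (12.6%).

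The RNAs that the mitochondrial genome supplies did not rise with the transcripts of the ribosomal proteins. The large ribosomal RNA, mt-Rnr2, measured 10100, 8703, 6124, 12750 and 11740 CPM in osimertinib libraries 1 to 5, against 10300, 7901, 12490, 19310 and 17830 CPM in placebo libraries 1 to 5 (log2 fold change -0.42 ± 0.40, SE; limma adjusted p = 0.459), and the small one, mt-Rnr1, stood at -0.36 ± 0.34 (adjusted p = 0.464); voom passed neither. Osimertinib library 3, where the ribosomal protein transcripts were high, had the lowest mt-Rnr2, but the libraries did not follow 1 order. Osimertinib library 5, the highest for these transcripts, had 11740 CPM, above osimertinib libraries 1 and 2. Placebo library 2, among the lowest for them, had 7901 CPM, under all but osimertinib library 3. None of the 13 mitochondrially encoded messenger RNAs passed limma or voom on the rescaled CPM, and 3 were lower at an unadjusted limma p under 0.05, with the lowest p at mt-Nd4l (-0.99 ± 0.39, SE; adjusted p = 0.0828). All 13 were under 0 and their median was -0.61, but this size rested on placebo library 5: without it the median was -0.25 and 2 were above 0. The median was -0.32 in the deposited CPM, with 1 above 0, and -0.07 with quantile normalization, where 2 were above 0 and 2 others passed as lower. Libraries were selected for poly(A) tails, and mitochondrial ribosomal RNAs carry only short ones, so these values are not the ribosome's own amount.

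As comparison lists, 23 of 78 nuclear genes of oxidative phosphorylation subunits rose (29.5%, against 10.4% of all genes tested) and none fell, with a median of 0.78. Leaving out 1 library, 2 rose without osimertinib library 3 (1.76% of all genes) or placebo library 2 (2.73%). The count reached 54 without placebo library 3 (12.6%). Of 77 cytosolic ribosomal protein genes none passed limma in either direction, with a median of 0.01 and 39 above 0, both close to all genes tested; 1 was lower at an unadjusted limma p under 0.05, and voom passed none. In the deposited CPM, where the median of all genes was 0.27, their median was 0.29, and with quantile normalization it was -0.14; none of the 77 passed in either. The difference between these lists and the members was not tested.

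**Figure D5:**
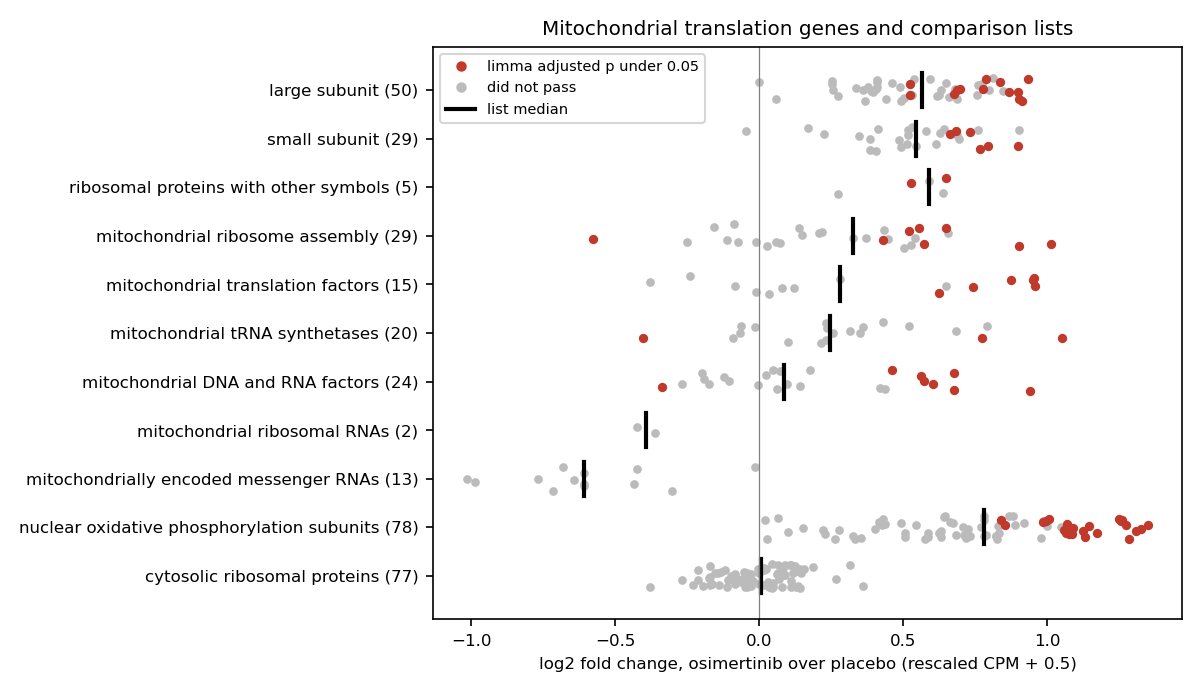
Each point is the log2 fold change of a gene (osimertinib over placebo, rescaled CPM + 0.5), red where it passed limma at an adjusted p under 0.05, with list medians as vertical bars and the number of genes tested in parentheses. Both subunits lie to the right of 0 with medians of 0.56 and 0.54, while cytosolic ribosomal proteins centre on 0.01 (0.29 in the deposited CPM and -0.14 with quantile normalization) and mitochondrially encoded messenger RNAs lie under 0 with all 10 libraries (2 are above 0 without placebo library 5).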

How the data were processed

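Left-ventricle RNA was sequenced as 5 osimertinib and 5 placebo libraries, and groups and numbers come from the sample titles. The deposited unit is CPM, so the authors gave each library a total of 1000000. Per the series' design text, poly(A)-selected, strand-specific libraries went through nf-core/rnaseq (STAR on GRCm38, then RSEM) and differential expression used limma with voom; the submitters' processing notes name cutadapt 1.9, HISAT2 2.0.4, StringTie 1.3.4d, DESeq2 and the build hg38. The gene identifiers are those of mouse, and 45143 of 45706 matched GENCODE M21 (GRCm38), which gave types, coordinates and exon lengths.

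The spacing of low CPM gave the worth of 1 read and so each depth. Values under 200 reads were whole, to a tolerance of 0.01 read, in 90.7% to 93.3% of cases and multiples of 0.01 read in 100%, so whole reads were not recovered and no count test was run. With 15863265 to 21309296 reads per library, 3 reads, the upper limit that a count of 0 allows, equal 0.141 to 0.189 CPM, for counting error only.

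CPM were rescaled by median ratios, and genes reaching 1 CPM in 5 or more libraries were tested with limma 3.58.1 (R 4.3.3) on log2(CPM + 0.5), with an intensity trend, two-sided, Benjamini-Hochberg adjusted over 12350 genes, calls at 0.05; this scale understates changes of low genes. The procedure was tested on simulated data, in which genes varied independently with a fixed dispersion. Shifts shared by many genes within a library, as seen here, were not simulated, so that test does not bear on how firm these calls are. Libraries all differed by more than sampling noise (chi-square over degrees of freedom at least 23.8 for each pair). Motifs were searched on both strands of RefSeq start windows. Alternatives were deposited CPM, quantile normalization, totals without mitochondrially encoded genes, pseudocounts of 0.1 and 2, 3 other filters, no trend, voom on estimated reads, a replicate block and leaving out each library; deposited CPM without placebo library 5 and a term for libraries with Myl7 of at least 1 CPM were added after seeing the data.

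The members and lists were chosen with earlier results of these data known. Members named are the 10 lowest p per direction among those that passed, the 5 highest mean CPM, the 5 p nearest 1, the extreme fold changes and 11 fixed symbols (Mrpl3, Mrpl12, Mrpl36, Mrpl44, Mrps14, Mrps18a, Mrps18b, Mrps18c, Mrps22, Mrps30, Mrps36); of each pathway list, the 3 lowest p among those that passed, or the lowest p.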

Additional observations from a re-analysis of the deposited data

Results flagged for a closer look

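The pseudogene Mrpl23-ps1 measured 3.48 rescaled CPM in osimertinib library 5, apart from the other 4 osimertinib libraries, of which the nearest was at 1.85 CPM; the gap is 0.714 of the group's range, just over the limit of 0.710 for 5 samples. It was the only 1 of 78 groups of 5 libraries examined (named members, member medians and marker sums) to stand out in this way, and chance gives about 1 in 20.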

How the results depend on the processing

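Counts of members that rose depended on the setting, while no member fell in any. The count for all, large-subunit and small-subunit members, 19, 13 and 6 as reported, was 4, 3 and 1 with totals without mitochondrially encoded genes, 0, 0 and 0 with no filter (50 members higher at an unadjusted p under 0.05 in limma), 4, 3 and 1 in the deposited CPM without placebo library 5, 11, 6 and 5 with no variance trend, and 70, 44 and 26 with a term for Myl7 of at least 1 CPM. Libraries correlated at 0.945 to 0.989 within a group and at 0.892 to 0.97 between groups. On a separate measure used to look for pairing, libraries of the same replicate number had correlations of -0.34 to 0.46. For numbers 1 and 3 these were above the highest with another number, and for numbers 2, 4 and 5 under it. Whether the numbers pair the libraries cannot be told from this. With the replicate block 31, 21 and 10 passed, where 12.9% of all genes rose. Without 1 library the counts ranged from 0 to 44, 0 to 29 and 0 to 15. Over the 93 genes of the 5 pathway lists, 24 higher and 3 lower as reported, the counts were 13 and 0 in the deposited CPM, 6 and 0 with totals without mitochondrially encoded genes, 3 higher with no filter, 7 and 1 in the deposited CPM without placebo library 5, 40 higher with the term for Myl7, 1 lower with the replicate block, and 1 to 31 higher and 0 to 4 lower without 1 library. Of all genes, 6.62% rose in the deposited CPM, 4.09% with totals without mitochondrially encoded genes and 2.45% with no filter. In the deposited CPM without placebo library 5 the share was 5.01%, and with the term for Myl7 it was 19.4%. In every setting, medians of all members, of each subunit and of the 5 pathway lists together moved by less than 0.401 on the log2 scale. This limit is the pooled SD of the member medians of the libraries, and it is wide beside the median of 0.54. The median of the mitochondrially encoded messenger RNAs was not held to it and went from -0.61 to -0.07 with quantile normalization. Signs turned for 3 members near 0: Mrps5 in the deposited CPM (0.23); Mrpl24 with quantile normalization (-0.035), a pseudocount of 2 (-0.000036), a mean of at least 5 CPM (-0.0041), voom on estimated reads (-0.0051) and between -0.066 and 0.068 without 1 library; and Mrpl52 between -0.053 and 0.20 without 1 library. Of the other alternative values of named genes, 743 kept direction and side, 185 lost a call and 43 gained one; the cause was not tested. Counting error is relatively largest for Mrpl23-ps1 and Mrps22, the members with the fewest reads.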
